A study of Mus musculus with 4 samples.

Results

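The genes described here encode the machinery that degrades mRNA and the RNA-binding proteins that work with Roquin, the protein changed in sanroque mice. The group has 45 genes, chosen by name with earlier results of these data known. Each was measured by the probe sets annotated to it alone. Of these, 37 genes had at least 1 such probe set, 84 probe sets in all among the 22690 of the array. The other 8 genes (Rc3h1, Khsrp, Cnot1, Pan3, Dcp2, Edc3, Exosc3 and Ago1) had no probe set annotated to them alone and are not analysed here, so the transcript of Roquin-1 itself was not read. A filter that left out probe sets with a mean signal under 21.3 removed 6 of the 84 and kept 78, and with them all 37 genes that had a probe set. For each gene the brightest probe set, with the highest mean signal over the arrays, came first, and the others are given beside it.

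RNA of CD4 cells was hybridised to 4 Affymetrix MOE430A arrays, 2 of sanroque (san/san) and 2 of wild type (+/+) mice. Sanroque is a recessive mutant line that was found in a screen for antinuclear antibodies among offspring of ENU-treated C57BL/6 males, and its change lies in Rc3h1, which encodes Roquin-1. The labels give no age for the mice whose cells were used, no statement on pooling, and nothing on whether 2 arrays of a genotype hold cells of separate mice. P-values therefore rest only on how far these arrays differ from each other, and that may be technical. The experiment information describes the number 1 arrays as sorted T cells, and for wild type array 2 it has CBA in the sample type, a strain name that no label takes up, so for this array strain and genotype cannot be told apart. The number 1 arrays were hybridised and scanned on one day and the number 2 arrays on another, called day 1 and day 2, and each day held both genotypes.

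mRNA decay usually starts at the poly(A) tail. RNA-binding proteins such as the Zfp36 family (tristetraprolin and its relatives), which recognise AU-rich elements (ARE), or Roquin, which recognises stem-loops, bring the CCR4-NOT deadenylase to a transcript. Regnase-1 recognises stem-loops too, and cuts the RNA itself. After the tail is shortened, either the cap is removed and the exonuclease Xrn1 degrades the body, or the exosome degrades it from the shortened tail. Argonaute proteins loaded with miRNAs feed into the same steps. In T cells these proteins limit transcripts of costimulatory receptors and cytokines, Icos among the mRNAs controlled by Roquin.

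Zfp36 fell in sanroque, and no deadenylase, decapping or exosome gene passed the test by its brightest probe set. All 5 tested probe sets of the Zfp36 family had lower signals in sanroque, and 1 of them passed. By limma, a linear model across the 13579 probe sets tested, on log2(signal + 6), with p-values adjusted over all of them at a threshold of 0.05, 1 of 37 member genes was called by its brightest probe set. That gene was Zfp36, and it fell. The share of called genes was 2.70% among the members, against 1.11% of all 7860 genes tested in the same way, of which 0.331% were called lower and 0.776% higher. Over all member probe sets the count was 1 of 78, against 1.06% of all probe sets tested, 0.670% higher and 0.390% lower. The median log2 fold change of the 37 genes was -0.01, beside 0.031 for all genes tested, and 33 of the 37 had a change under 0.5 in size, 89.2% against 87.3% of all genes. By these measures the group as a whole lay where other genes lay. Members were chosen with earlier results of these data known, so their shares, here and below, are descriptions. With the day as a block 3 member genes were called, all lower (8.11% of the members, against 2.12% of all genes called lower), namely Zfp36, Zfp36l2 and Ago2, and 0 were called higher, against 3.92% of all genes (6.04% in either direction). Over probe sets 12 of 78 were called with the block, 3 higher and 9 lower, against 3.59% higher and 2.68% lower of all probe sets. On simulated data without a day difference the fit with the block made several times more false calls than its threshold of 0.05 allows. The fit without it kept to the threshold there. Those data were drawn from the model of the fit without the block, so that outcome was close to fixed in advance. A day difference is what the block takes up, so those data cannot give either rate for arrays paired by day. Adjusted p-values with the block, here and below, may be too small, and calls made by it alone are given as values and not as changes.

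**Figure D1:**
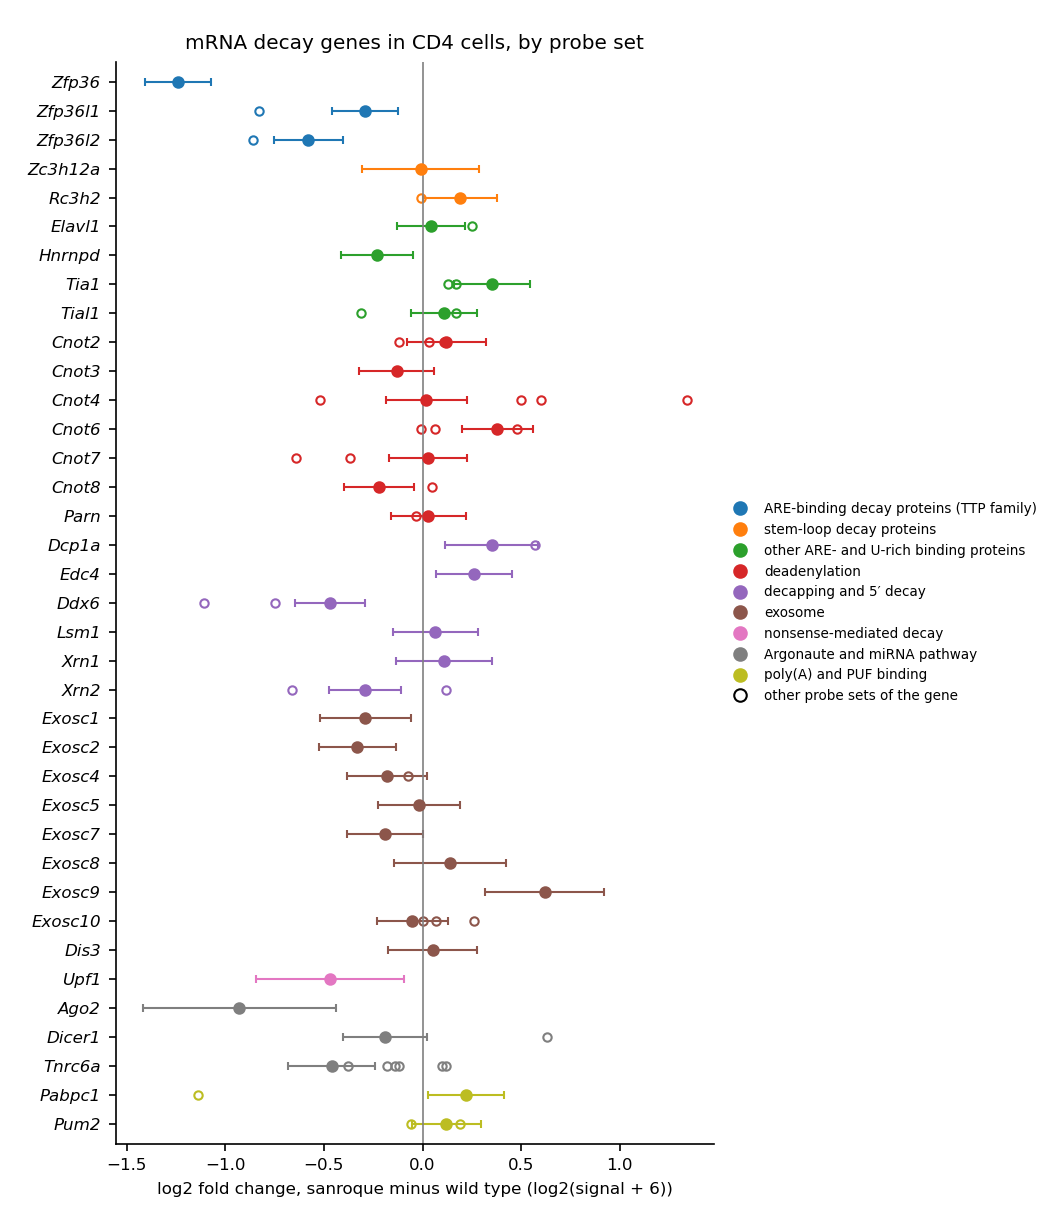
Log2 fold change of sanroque over wild type for the 37 member genes, on the log2(signal + 6) scale, with genes ordered and coloured by role. Filled points with bars are the brightest probe set and its standard error from limma, and open points are the other tested probe sets of the same gene. Zfp36 stands at -1.24, and the open points of Cnot4 (1.34), Pabpc1 (-1.14) and Ddx6 (-1.11) lie away from their filled points.

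Zfp36 and Zfp36l1 are shown by the 250 bases before their start sites, because Zfp36 was the one member called and Zfp36l1 is its relative. The sequences are from RefSeq, build GRCm38.p6, each read 5′ to 3′ on the minus strand, which is that of the gene, from chr7:28379229-28379478 for Zfp36 and chr12:80113014-80113263 for Zfp36l1. Capitals mark matches to the motifs searched.
Zfp36: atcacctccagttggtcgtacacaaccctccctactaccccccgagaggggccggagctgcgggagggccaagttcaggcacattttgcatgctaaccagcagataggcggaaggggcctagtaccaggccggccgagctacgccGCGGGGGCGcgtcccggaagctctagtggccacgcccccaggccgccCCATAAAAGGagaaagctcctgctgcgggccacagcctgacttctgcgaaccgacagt
Zfp36l1: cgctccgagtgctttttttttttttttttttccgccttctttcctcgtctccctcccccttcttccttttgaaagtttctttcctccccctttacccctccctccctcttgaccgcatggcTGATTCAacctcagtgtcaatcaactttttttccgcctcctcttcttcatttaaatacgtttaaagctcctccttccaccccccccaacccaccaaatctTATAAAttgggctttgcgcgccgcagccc
In the Zfp36 window the capitals are an Egr motif (GCGNGGGCG) that begins 105 bases before the start site and a CArG box, the core of the serum response element, that begins 58 bases before it. In the Zfp36l1 window the first is TGATTCA, which begins 129 bases before the start and matches the AP-1 motif as searched (TGANTCA). That search took any base at N, here a T. The second is a TATA motif (TATAAA) that begins 29 bases before the start. The CRE motif TGACGTCA was searched too and was in neither window. The motifs were chosen with these sequences already seen, both strands were searched, and in these windows matches overlapped only where a site was read on both strands. Over all 32851 promoter windows of that length a CArG box was present in 1.47%, the Egr motif in 4.7%, the AP-1 motif in 6.75%, the CRE motif in 1.55% and TATAAA in 12.4%. The table held 44 windows for 35 of the 45 member genes. Among these 44 the CArG box was found in 1 window, that of Zfp36, the AP-1 motif in 2, the Egr motif in 5, TATAAA in 1 and the CRE motif in 0. A match describes the letters of a window and is not evidence of binding. Zfp36l2 is named only.

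Zfp36, or tristetraprolin, binds AU-rich elements of cytokine mRNAs and recruits deadenylases to them. Its 1 probe set, 1452519_a_at, read 323.8 and 309.2 on the sanroque arrays, against 742.0 and 766.3 on the wild type arrays. The sanroque values lay well below the wild type values and the arrays of a genotype were close to each other. The means were 316.5 ± 10.3 in sanroque and 754.1 ± 17.2 in wild type (SD, n = 2 each), so sanroque stood at 42% of wild type. The log2 fold change was -1.24 with a standard error of 0.166 (limma adjusted p = 0.00478). The difference was -1.18 on day 1 and -1.29 on day 2. Without a variance trend in the model Zfp36 did not pass (limma adjusted p = 0.101). It passed under the changes of scaling, pseudocount and filter (adjusted p from 0.00365 to 0.0155). With the day as a block the adjusted p was 4.04e-07. Fits that left out an array gave log2 fold changes from -1.27 to -1.20. In bulk RNA, fewer cells that express a gene and less of its RNA per cell cannot be told apart.

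Zfp36l1 and Zfp36l2 are relatives of Zfp36 that bind the same elements and, in mice, restrain lymphocyte growth and activation. The bright Zfp36l2 probe set read 1379.9 and 1504.1 in sanroque, against 2224.9 and 2094.3 in wild type. A dimmer one read 63.3 and 40.9 in sanroque, against 114.7 and 82.3 in wild type. The genotypes did not overlap at either. The log2 fold changes were -0.58 (standard error 0.175) and -0.86 (standard error 0.268), and neither passed (limma adjusted p = 0.22 and 0.25), with 0.00725 and 0.00597 when the day was a block. Another Zfp36l2 probe set lay below the filter, with 6.7 and 5.3 in sanroque, against 8.3 and 21.7 in wild type.

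For Zfp36l1 the brightest probe set read 649.2 and 697.5 in sanroque, against 851.2 and 798.9 in wild type, a log2 fold change of -0.29 (standard error 0.168, limma adjusted p = 0.647). Its other probe set read 142.0 and 142.7 in sanroque, against 292.9 and 225.2 in wild type. The genotypes did not overlap at either probe set, and the second showed the wider gap. Its log2 fold change was -0.83 (standard error 0.194) and did not pass (adjusted p = 0.0897), and had 0.00115 with the day as a block. Without wild type array 2 it was -1.01 (adjusted p = 0.0355). A fit without 1 array leaves a single array in that genotype, which is assumed to vary like the other genotype's pair, so such a p, here and below, shows how far a value hangs on 1 array and is no support for a change. All 5 tested probe sets of the family were lower in sanroque on both days.

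**Figure D2:**
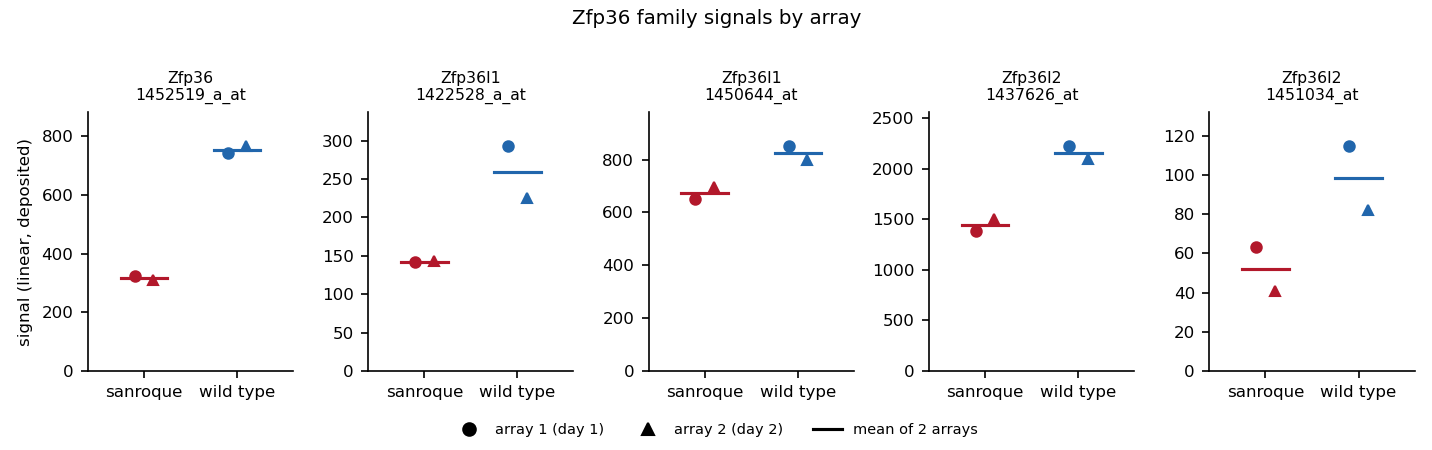
Deposited signal on a linear scale for the 5 tested probe sets of Zfp36, Zfp36l1 and Zfp36l2, with sanroque left and wild type right; each panel has its own scale from 0. Circles are the number 1 arrays, triangles the number 2 arrays and lines the mean of 2 arrays. In every panel both sanroque points lie below both wild type points.

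Other sets of genes moved in these same arrays. These lists and those below were also made with earlier results of the data known, so their counts are descriptions. Of 20 tested genes of an immediate early list, 13 fell, 0 rose and 7 did not pass, where 0.331% of all genes were called lower. Cells switch on many such genes within minutes of stimulation, and Zfp36 itself is often counted among them. The list also holds heat shock genes, of which Hspa1a (-3.42) and Hspa1b (-3.37) passed and Dnajb1 (-0.82) did not. Over the 22 genes of the list the summed signal was 4852 to 5236 in sanroque, against 16384 to 18581 in wild type. None of the 22 read 0 on an array. Fos, a subunit of AP-1, read 81.0 and 99.7 in sanroque, against 2393.2 and 2968.0 in wild type (log2 fold change -4.80, limma adjusted p = 5.58e-07). The log2 fold changes of the 20 tested ran from -4.80 to 0.47, with a median of -1.81. Jun had the next largest fall after Fos, at -4.58 (limma adjusted p = 5.58e-07). Ier2, named here after its value was seen, was close in size to Zfp36, at -1.21 (limma adjusted p = 0.00586). The median of the list was a larger fall. The part of this list's change in the lower Zfp36 signal was not tested.

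The labelled cell type was checked by its markers. Cd4 read 585.9 and 570.2 in sanroque, against 533.3 and 613.5 in wild type, and none of 10 tested T cell genes passed. The summed signal of 20 myeloid and neutrophil markers was 4750 to 4765 in sanroque, against 1912 to 2090 in wild type. Of 17 tested 5 rose, where 0.776% of all genes were called higher, and all 17 had log2 fold changes above 0. That of 10 B cell markers was 2694 to 3064 in sanroque, against 2964 to 3010 in wild type, and 0 of 8 tested passed. For 9 CD8 T and NK cell markers it was 618.6 to 694.4 in sanroque, against 604.5 to 664.1 in wild type, and for 9 red cell and platelet markers 1634 to 1786 in sanroque, against 1167 to 1203 in wild type, again with 0 of 9 and 0 of 6 tested that passed. With the day as a block 9 myeloid and neutrophil, 3 red cell and platelet and 1 CD8 T and NK cell markers were called higher. By the same fit 1 B cell marker was called lower. Of all genes 3.92% were called higher and 2.12% lower with the block. None of these marker genes read 0 on any array, and Pax5, Ebf1, Elane, Itgam, Mmp8, Epb42, Ppbp and Gp9 were below the filter. The part of such cells in the members' values was not tested.

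The stem-loop decay proteins did not differ detectably. Zc3h12a, or Regnase-1, an endonuclease that cuts stem-loops in inflammatory mRNAs, read 35.8 and 43.9 in sanroque, against 36.9 and 43.3 in wild type. The pairs of values are almost the same, and the log2 fold change was -0.01 (standard error 0.298, limma adjusted p = 0.998). Rc3h2 encodes Roquin-2, the paralogue of Roquin-1. Its brightest probe set read 308.0 and 236.1 in sanroque, against 229.3 and 241.0 in wild type. The genotypes overlapped, with the highest value on sanroque array 1, and the log2 fold change was 0.19 (standard error 0.19, adjusted p = 0.846). The dimmer Rc3h2 probe set had -0.01, with -0.42 on day 1 and 0.40 on day 2.

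Among the other proteins that bind AU-rich or U-rich RNA, 4 of 5 genes had a probe set and none passed. Elavl1 (HuR), which stabilises its targets, had log2 fold changes of 0.043 and 0.25 at 2 probe sets. Hnrnpd (AUF1), which promotes decay of ARE transcripts, read 436.1 and 556.8 in sanroque, against 559.3 and 598.0 in wild type, a log2 fold change of -0.23 (limma adjusted p = 0.78). Although the genotypes did not overlap, the gap between sanroque array 2 and wild type array 1 was small. Tia1 and Tial1, silencers of translation that gather in stress granules, had 0.35 (adjusted p = 0.617) and 0.11 (adjusted p = 0.914) by their brightest probe sets. The Tia1 probe sets, brightest first, differed between the days by -0.24, -0.78 and -0.46 on the log2 scale. Between the genotypes they differed by 0.35, 0.17 and 0.13, so the brightest differed more by genotype. The one with the widest day difference read 190.8 and 109.9 in sanroque, against 171.2 and 95.4 in wild type. There each number 2 array lay below its number 1 partner by far more than the genotypes differed.

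Deadenylation was represented by 7 of 9 genes, and none of them passed by its brightest probe set. Cnot2 and Cnot3, of the NOT module, had log2 fold changes of 0.12 and -0.13. The catalytic subunits Cnot6, Cnot7 and Cnot8 had 0.38, 0.027 and -0.22, and Parn, a poly(A)-specific ribonuclease, 0.029. For Cnot6 the brightest probe set read 564.5 and 529.9 in sanroque, against 468.1 and 377.1 in wild type (limma adjusted p = 0.541). Here the sanroque values were above the wild type values on both days, and another Cnot6 probe set had 0.48 with no overlap (adjusted p = 0.492), while its remaining probe sets had -0.0085 and 0.062. For Cnot7, 2 of 3 probe sets were lower in sanroque without overlap, while the brightest overlapped. One read 78.6 and 82.0 in sanroque, against 122.9 and 134.7 in wild type, and its log2 fold change of -0.64 did not pass (adjusted p = 0.238, 0.0255 with the day as a block). The other read 44.8 and 58.8 in sanroque, against 78.3 and 58.9 in wild type, with nearly equal values on day 2, and had -0.37 (adjusted p = 0.737).

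Cnot4, a RING ubiquitin ligase that associates with CCR4-NOT, was the member whose probe sets differed most from each other, with log2 fold changes from -0.52 to 1.34 over 5 probe sets. Probe set 1421000_at read 139.3 and 198.8 in sanroque, against 84.2 and 45.5 in wild type. Its log2 fold change of 1.34 (standard error 0.283) was just short of the threshold (limma adjusted p = 0.057). Day 1 gave 0.69 and day 2 gave 1.99. With arrays centred on their median it passed (adjusted p = 0.0487), and with the day as a block it had 7.37e-05. Fits that left a single array in a genotype gave 0.0123 without sanroque array 1 and 1.72e-05 without wild type array 1, and over all 12 alternatives the adjusted p reached 0.288.

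Probe sets 1420999_at and 1437586_at were higher in sanroque too, without overlap. The first read 124.3 and 107.2 in sanroque, against 83.7 and 65.4 in wild type, a log2 fold change of 0.60 (limma adjusted p = 0.361, 0.0454 with the day as a block). The second read 117.0 and 110.5 in sanroque, against 91.0 and 67.9 in wild type, with 0.50 (adjusted p = 0.481). The brightest Cnot4 probe set, 1436645_a_at, had 0.02 and overlapped between genotypes. The dimmest, 1450083_at, read 40.4 and 39.9 in sanroque, against 55.5 and 65.4 in wild type, and had -0.52 (adjusted p = 0.568). A direction for Cnot4 thus depends on the probe set.

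**Figure D3:**
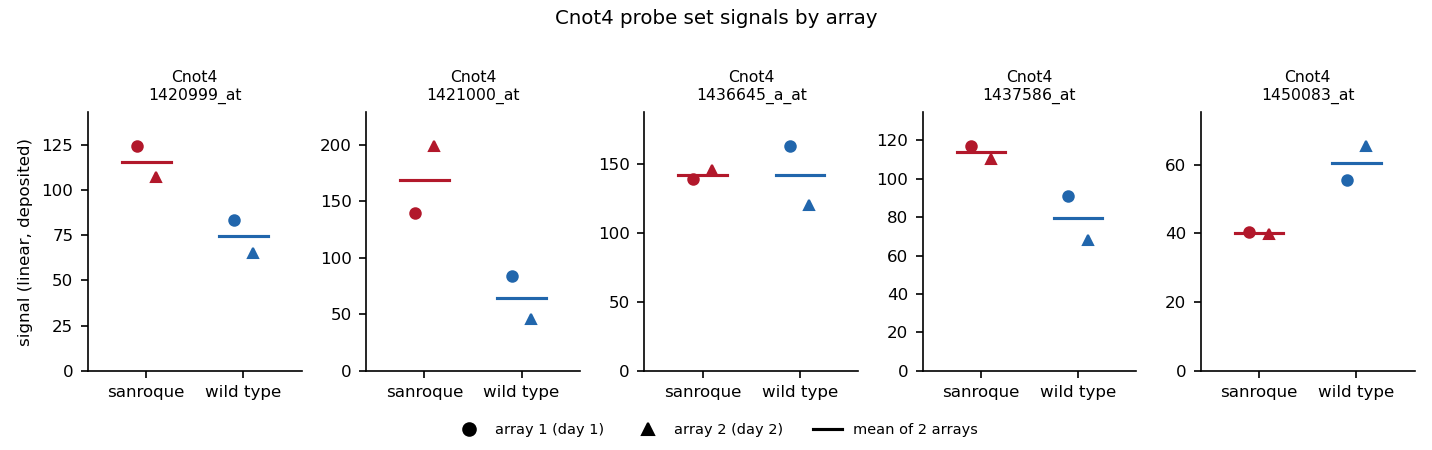
Deposited signal on a linear scale for the 5 probe sets of Cnot4, sanroque left and wild type right, each panel with its own scale from 0. Circles are the number 1 arrays, triangles the number 2 arrays and lines the mean of 2 arrays. Sanroque is higher without overlap in 3 panels, lower without overlap in 1, and overlaps with wild type in the panel of 1436645_a_at.

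Decapping and 5′ decay were represented by 6 of 8 genes, none of which passed. Edc4, a scaffold of the decapping complex known to bind Roquin, read 190.5 and 202.3 in sanroque, against 143.2 and 184.1 in wild type (log2 fold change 0.26, limma adjusted p = 0.75). Dcp1a, a decapping activator, had 0.35 (adjusted p = 0.716), and Lsm1, of the ring that binds deadenylated ends, had 0.065. The cytoplasmic exonuclease Xrn1 had 0.11. Its nuclear relative Xrn2 had -0.29 by the brightest probe set, which did not overlap, and -0.66 and 0.12 by the others (adjusted p = 0.686, 0.653 and 0.915).

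Ddx6, a helicase that links CCR4-NOT to decapping and is a known partner of Roquin, was lower in sanroque by its brightest probe set. This read 384.9 and 351.4 in sanroque, against 558.6 and 467.2 in wild type. The genotypes did not overlap, and the log2 fold change was -0.47 (standard error 0.177), with -0.53 on day 1 and -0.40 on day 2, but it did not pass (limma adjusted p = 0.39, 0.0504 with the day as a block). The other Ddx6 probe sets rest on 1 array. Probe set 1439122_at read 117.3 and 66.9 in sanroque, against 107.7 and 363.3 in wild type. Probe set 1424598_at read 174.3 and 145.4 in sanroque, against 156.6 and 471.3 in wild type. Wild type array 2 alone was high, so the differences on day 1 were 0.12 and 0.15 and those on day 2 -2.34 and -1.66. Both were called with the day as a block (0.0119 and 0.0424), and without wild type array 2 the log2 fold changes were -0.26 and 0.023. For that array, which has CBA in its sample type, strain and genotype cannot be told apart, here and below.

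Of the Argonaute and miRNA genes 3 of 4 had a probe set, and none passed. Ago2, the Argonaute that can cut its target, read 98.0 and 120.4 in sanroque, against 100.3 and 443.5 in wild type. Again wild type array 2 stood apart and the other 3 arrays were level. The log2 fold change was -0.93 (standard error 0.489, limma adjusted p = 0.599), made of -0.032 on day 1 and -1.83 on day 2. With the day as a block the adjusted p was 0.011. Without wild type array 2 the log2 fold change was 0.11 (adjusted p = 0.998). Without wild type array 1, where the high array is the only wild type array left, it was -1.97 (adjusted p = 1.44e-07).

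Tnrc6a encodes GW182, which joins Argonaute to the deadenylases, and had 8 probe sets, the most of any member. The brightest read 548.5 and 475.5 in sanroque, against 561.5 and 882.6 in wild type, and had a log2 fold change of -0.46 (limma adjusted p = 0.545), -0.033 on day 1 and -0.88 on day 2. Wild type array 2 was the high one here as well. With it as the only wild type array the value was -0.78 (adjusted p = 0.0386), and without it -0.14 (adjusted p = 0.998). The 7 tested Tnrc6a probe sets ran from -0.46 to 0.12. Dicer1, which cuts miRNA precursors, had -0.19 by its brightest probe set and 0.63 by the other. That other probe set read 141.8 and 110.1 in sanroque, against 84.1 and 74.0 in wild type, did not pass (adjusted p = 0.321) and was called higher with the day as a block (0.0325).

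Pabpc1, the cytoplasmic poly(A)-binding protein, had a bright probe set that read 4010.8 and 4474.7 in sanroque, against 3501.9 and 3796.9 in wild type. The log2 fold change was 0.22 (limma adjusted p = 0.815), and the sanroque arrays were higher on both days. Its dim probe set went the other way, with 67.1 and 71.9 in sanroque, against 307.7 and 82.2 in wild type. Here wild type array 1 alone was high, and the log2 fold change of -1.14 (adjusted p = 0.404, 0.00329 with the day as a block) was -2.10 on day 1 and -0.18 on day 2. Without wild type array 1 it was -0.23, and with that array as the only wild type array it was -2.06 (adjusted p = 2.32e-05). Pum2, a PUF protein that recruits deadenylases, had 0.12 by its brightest probe set.

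In all, 1 array lay above the other 3 by more than 1 on the log2 scale at 4 of 78 member probe sets (5.13%), against 0.493% of all probe sets tested. They were the 2 dimmer Ddx6 probe sets and that of Ago2, where it was wild type array 2, and the dim Pabpc1 probe set, where it was wild type array 1. Over all probe sets that array was wild type 2 in 0.221%, wild type 1 in 0.0810%, sanroque 1 in 0.184% and sanroque 2 in 0.00736%. This was noticed in the data and then counted, and members share genes and arrays, so it is a description. These 4 probe sets are among the 12 that were called with the day as a block, in which each probe set has 1 residual degree of freedom and the prior has 29.1, so that a call depends little on a probe set's own spread. Without the block the values were 2 and 8.68. Of all probe sets tested, 6.27% were called with the block.

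**Figure D4:**
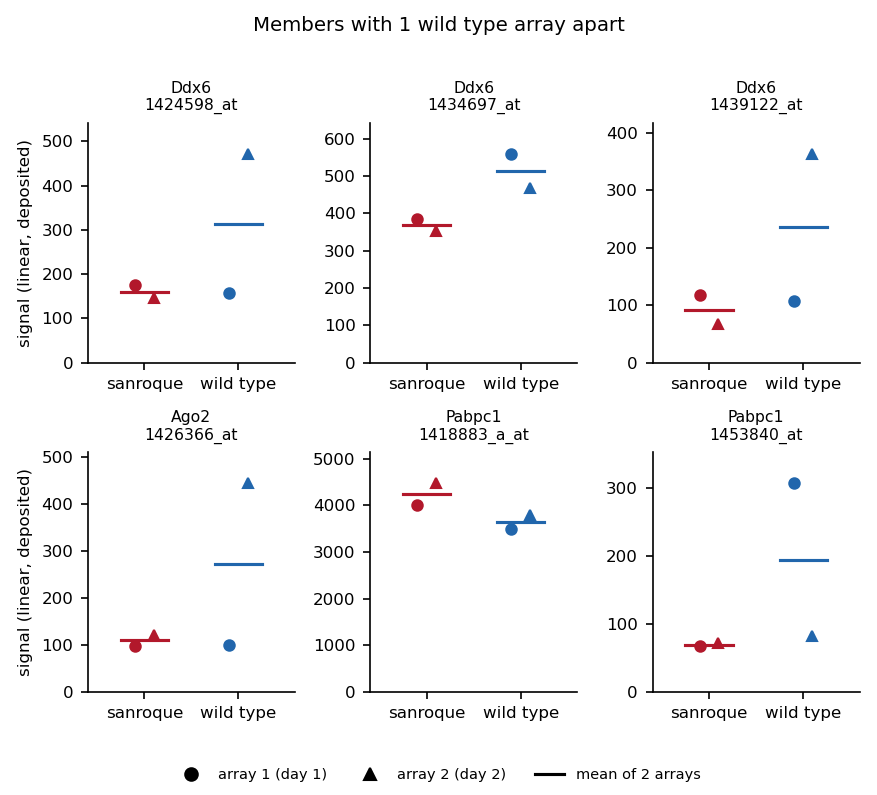
Deposited signal on a linear scale for the tested probe sets of Ddx6, Ago2 and Pabpc1, sanroque left and wild type right, each panel with its own scale from 0. Circles are the number 1 arrays, triangles the number 2 arrays and lines the mean of 2 arrays. In the panels of 1424598_at, 1439122_at and 1426366_at the wild type triangle alone is high, and in that of 1453840_at the wild type circle.

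The exosome, the multi-subunit 3′ exonuclease, was represented by 9 of 10 genes, and none passed. Their log2 fold changes by the brightest probe set ran from -0.33 to 0.62 with a median of -0.052. The structural subunit Exosc2 was the lowest, with 110.0 and 101.5 in sanroque, against 127.2 and 141.2 in wild type. The genotypes did not overlap, and its log2 fold change of -0.33 did not pass (limma adjusted p = 0.655). Exosc9 was the highest, with 72.4 and 119.4 in sanroque, against 76.5 and 44.8 in wild type. Its log2 fold change of 0.62 (adjusted p = 0.556) came from day 2, at 1.30, while day 1 gave -0.074. The catalytic subunits Dis3 and Exosc10 had 0.051 and -0.052. Upf1, the helicase of nonsense-mediated decay and a known helper of Regnase-1, was dim, with 35.5 and 19.2 in sanroque, against 45.3 and 32.9 in wild type (log2 fold change -0.47, adjusted p = 0.782).

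By brightest probe set the genotypes did not overlap in 10 member genes that were lower in sanroque (27.0%, against 16.3% of all genes) and in 6 that were higher (16.2%, against 22.3%). Over the 78 probe sets 20 were lower and 16 higher without overlap, where 17.7% and 21.0% of all probe sets were. The lower ones include all 3 Zfp36 family genes. In 24 of 37 genes (64.9%) the difference had the same sign on both days, close to the 62.2% of all genes tested. In 15 of 37 (40.5%) the difference between the days was larger than that between the genotypes, which held for 52.3% of all genes. Of the 21 member genes with more than 1 tested probe set, 14 had probe sets on both sides of 0, and in 2 of them, Cnot4 and Pabpc1, the probe sets spanned more than 1 on the log2 scale.

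**Figure D5:**
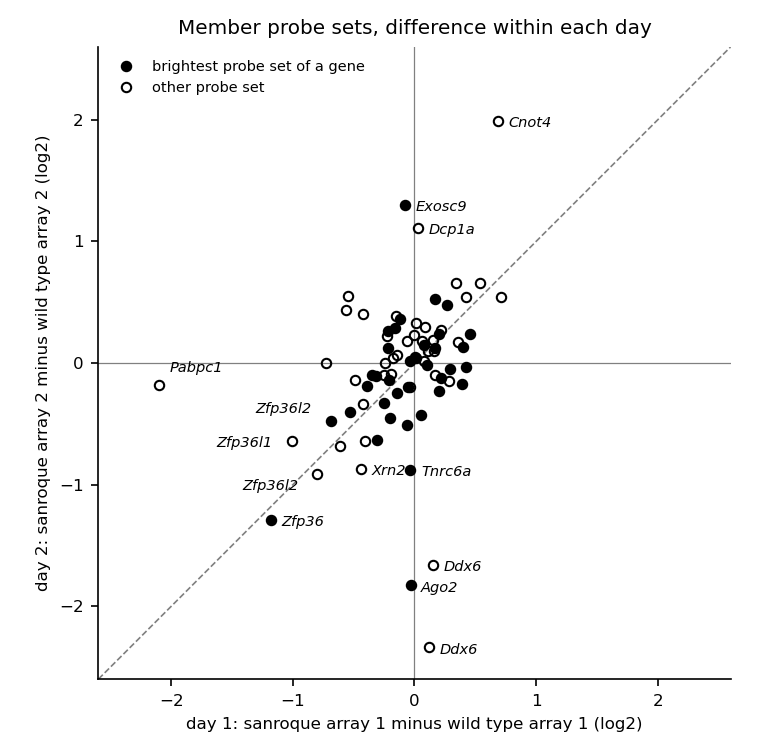
Difference between sanroque and wild type on day 1 (horizontal) and day 2 (vertical), in log2(signal + 6), for the 78 tested member probe sets; filled points are the brightest probe set of a gene, and the dashed line marks equal differences. Zfp36 lies near the line at -1.18 and -1.29, whereas Ago2, the 2 dimmer Ddx6 probe sets and the dim Pabpc1 probe set lie away from 0 on 1 day alone.

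Beyond the members, 40 of 61 further genes of deadenylation, decapping, exosome cofactors, nonsense-mediated decay and the miRNA pathway were tested. Of these 1 fell, 0 rose and 39 did not pass, where 0.331% of all genes were called lower and 0.776% higher. The median log2 fold change was -0.068. The one that fell was Btg2, an antiproliferative protein that binds the deadenylase subunits Cnot7 and Cnot8 and is also an immediate early gene. It read 539.7 and 658.5 in sanroque, against 1101.1 and 1719.1 in wild type (log2 fold change -1.20, standard error 0.225, limma adjusted p = 0.0307). Its relative Tob1 read 136.5 and 117.8 in sanroque, against 323.6 and 182.0 in wild type, and did not pass (-0.91, adjusted p = 0.171, 0.000649 with the day as a block). Both were lower on both sanroque arrays than on either wild type array.

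Of 30 tested among 40 cofactors of Roquin and of ARE-binding proteins none passed, with 1 at an unadjusted p under 0.05 by limma, and their median log2 fold change was -0.059. With the day as a block 1 was called, the RNA-binding protein Hnrnpa1, with 444.6 and 431.8 in sanroque, against 722.1 and 698.1 in wild type (-0.69, adjusted p = 0.0996, 0.00184 with the block). Of 20 tested mRNAs known as targets of decay by Roquin, Regnase-1 or the Zfp36 family, 2 rose, 3 fell and 15 did not pass. Of all genes 0.776% were called higher and 0.331% lower. With the day as a block 6 of the 20 were called higher and 4 lower, against 3.92% and 2.12% of all genes. Icos, the costimulatory receptor whose mRNA Roquin represses, read 538.8 and 417.6 in sanroque, against 149.0 and 105.6 in wild type (1.87, adjusted p = 0.00143), and the cytokine Il21 rose by 1.82 (adjusted p = 0.0307). Fos, Tnfaip3 (-3.18) and Ier2 fell, and these 3 also belong to the immediate early list. The targets that passed thus lay in both directions.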

How the data were processed

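RNA of CD4 cells was measured on 2 sanroque and 2 wild type arrays, grouped by the genotype and number in their titles. Values were deposited as linear intensity, 1 for each probe set on each array; the chip type is MOE430A per the file headers, and how the authors summarised probes or corrected background is not given in the sources used here. Arrays had trimmed means (2% to 98%) of the deposited intensity values of 99.59 to 99.97 and medians of 30.8 to 40.4, so no further scaling was applied. Same-numbered arrays share a hybridisation and scan day per the file headers, which pairs them; their deviations from the genotype means correlated with 0.392 over probe sets.

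Values were taken as log2(signal + 6), 6 being the 20th percentile. Left out were 64 controls and whatever averaged below the 40th percentile (21.3), which left 13579 probe sets. Of all probe sets 20393 had 1 symbol, 691 several and 1555 none listed; symbols were updated by gene identifier through RefSeq. Limma 3.58.1 (R 4.3.3; lmFit, eBayes with variance trend, two-sided, p-values adjusted by Benjamini-Hochberg across the whole fit, threshold 0.05) compared sanroque with wild type, without covariates. On simulated data without a day difference, drawn from its own model, this fit kept its false calls to the threshold. The fit with the day as a block exceeded it several times over. Those data cannot give the rates for arrays paired by day. Fold changes on this scale understate changes of dim probe sets. Alternatives were quantile normalization, median centring, pseudocounts of 1 and 24, the filter dropped or raised to the 60th percentile, the variance trend left off, the day as a block, each array left out, and genes summarised by averaging their probe sets. Members and lists were chosen with earlier results of these data known. Named in full were the Zfp36 family, Rc3h2 and Zc3h12a, members called with or without the block, up to 8 members with the largest changes in each direction without overlap, and members whose probe sets differed in sign by over 1. From the other lists only some genes past the test are named, not always those with the largest changes. Upf1, Exosc9, Tob1, Hnrnpa1 and other genes outside this rule were named after their values were seen. Figures used matplotlib 3.10.9 in Python 3.11.15.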

Additional observations from a re-analysis of the deposited data

How the results depend on the processing

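Zfp36 stayed lower under all 12 alternatives, from -1.27 to -1.19 on the log2 scale. Among the alternatives that kept every array it did not pass without the variance trend (limma adjusted p = 0.101) and passed in the others. Of 347 values recomputed for 29 named member probe sets, 317 kept direction and call, 20 passed the threshold where the main value had not, 1 no longer passed and 9 changed sign. The changes of sign came only from leaving out an array. These ranges were -0.14 to 0.12 for Zc3h12a, -0.19 to 0.23 for Cnot4 (1436645_a_at), -0.15 to 0.20 for Cnot7 (1423641_s_at), -1.53 to 0.023 for Ddx6 (1424598_at), -1.97 to 0.11 for Ago2 and -0.40 to 0.013 for Dicer1 (1427941_at). With the replicate block, which is the day, 852 probe sets were called in all, 12 member probe sets and 3 member genes. Without the block the counts were 144, 1 and 1. On simulated data without a day difference the fit with the block exceeded its rate of false calls. Those data were drawn from the model of the fit without the block and cannot give the rates for arrays paired by day. Without the variance trend limma called 47 in all and 0 member genes or probe sets, with 2 member genes and 10 member probe sets at an unadjusted p under 0.05. Without the filter 56 were called in all, of more probe sets tested. With each array centred on its median 2 member probe sets were called, Zfp36 and Cnot4 (1421000_at). Leaving out 1 array, which leaves a single array assumed to vary like the other genotype's pair, gave 105 to 356 calls in all, the highest without wild type array 1, which also gave 6 member probe sets (range 1 to 6) and 3 member genes (range 1 to 3). Without wild type array 2 there were 3 member probe sets, and without sanroque array 1 there were 2. The median of the members ran from -0.085 to -0.0099 with an array left out. Causes of these shifts were not tested. With 2 arrays a genotype, precision is limited by their number.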
